A study of Mus musculus with 2 samples.

Results

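The isthmus is the constriction between the midbrain and the hindbrain, and its neural progenitors form a signalling centre, the isthmic organiser. Cells of this centre secrete the fibroblast growth factors Fgf8 and Fgf17, and Wnt1 is made on its midbrain side. FGF signalling keeps the engrailed genes En1 and En2 and the paired box genes Pax2, Pax5 and Pax8 on in the region, and it turns on its own inhibitors, the Sprouty proteins, Dusp6 and Il17rd among them. Otx2 marks the midbrain side of the boundary and Gbx2 the hindbrain side.

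The Fgf8/Fgf17 cells described here were 124 neural progenitors out of 11212 cells of embryonic heads, 36 in the control library and 88 in the mutant library. Each was a cell with at least 3 unique molecular identifiers (UMIs, the count of captured RNA molecules) of the progenitor genes Sox2, Sox3 and Hes5 together and at least 1 UMI of Fgf8 and Fgf17 together. A cell was left out if it held more than 2 UMIs of the neuronal genes Elavl3 and Stmn2, more than 1 UMI of the mesenchymal genes Prrx1, Prrx2 and Twist1, any UMI of Sox10 or Lmx1a, or 10 or more UMIs of Ttr. The cells were thus chosen by the UMI counts of these 13 genes, whose levels are given as description only. The other 1259 neural progenitors passed the same limits with no Fgf8 or Fgf17 UMI and served as the cells for comparison, 483 of them control and 776 mutant.

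The cells came from mouse embryos at E11.5 (embryonic day) in which Wnt1:CRE had recombined the mTmG reporter. Heads were taken down to pharyngeal arch 2, and flow sorting kept the cells that carried GFP. Tfap2HET controls carried 1 wild-type and 1 floxed copy each of Tfap2a and Tfap2b (wt/flox). Tfap2NCKO mutants were flox/flox for both genes, and the genotypes of both groups also included r26 mTmG/mTmG and Wnt1CRE+. Each group was 1 library made from the combined cells of 2 embryos, so there was no replicate and no test between genotypes. All intervals below are 95% intervals that cover counting error only. As background, Wnt1:CRE is active in dorsal midbrain and isthmic neural cells as well as in cranial neural crest.

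The libraries held 5625 control and 5587 mutant cells after filtering. The Fgf8/Fgf17 cells had a median of 12200.5 UMIs in the control (range 2116 to 31191) and 11804 in the mutant (range 4962 to 27265), close to the medians of 11432 and 11034 in the other progenitors. Summed over cells this gave 470775 control and 1101337 mutant UMIs. Scrublet called 0 control and 1 mutant cell a doublet. The libraries shared 5 barcodes among filtered cells, none of them an Fgf8/Fgf17 cell. Xist was detected in all 36 control cells and in 1 of the 88 mutant cells, so that embryonic sex and genotype cannot be told apart. Tfap2a had 0 UMIs in the 36 control cells and 1 in the 88 mutant cells, and Tfap2b had 0 and 2. For detection in 0 of 36 cells the exact interval reaches 9.74% of cells with a UMI. It sets no limit on the share of cells that express the gene. The targeted genes were thus barely detected in these cells of either genotype and do not check the labels here. A floxed transcript that had been recombined could also not be told from an intact one by its counted end.

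The data bore out the isthmic part of the label and not all of its markers. En1 was detected in 83.3% of control and 80.7% of mutant Fgf8/Fgf17 cells, and Pax5 in 86.1% and 76.1%. Cnpy1, which encodes an endoplasmic reticulum protein needed for FGF signalling at the isthmus, was detected in 91.7% and 88.6%. In other progenitors with or without an Otx2 UMI, the same shares lay between 6.40% and 18.8% for En1, between 6.95% and 11.4% for Pax5, and between 21.8% and 34.1% for Cnpy1. Pax2 was detected in 5 of the 36 control cells and in 21 of the 88 mutant cells, Pax8 in 14 and 26, and Fgf18 in 15 and 20. Fam181a, which the label names as a marker, did not set the cells apart: it was detected in 47.2% of control and 46.6% of mutant Fgf8/Fgf17 cells, against 46.8% and 50.3% of other progenitors. Its level was 72.2 and 69.9 counts per 1000000 UMIs (CPM) in the Fgf8/Fgf17 cells and 74.9 and 84.6 CPM in the other progenitors.

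**Figure D1:**
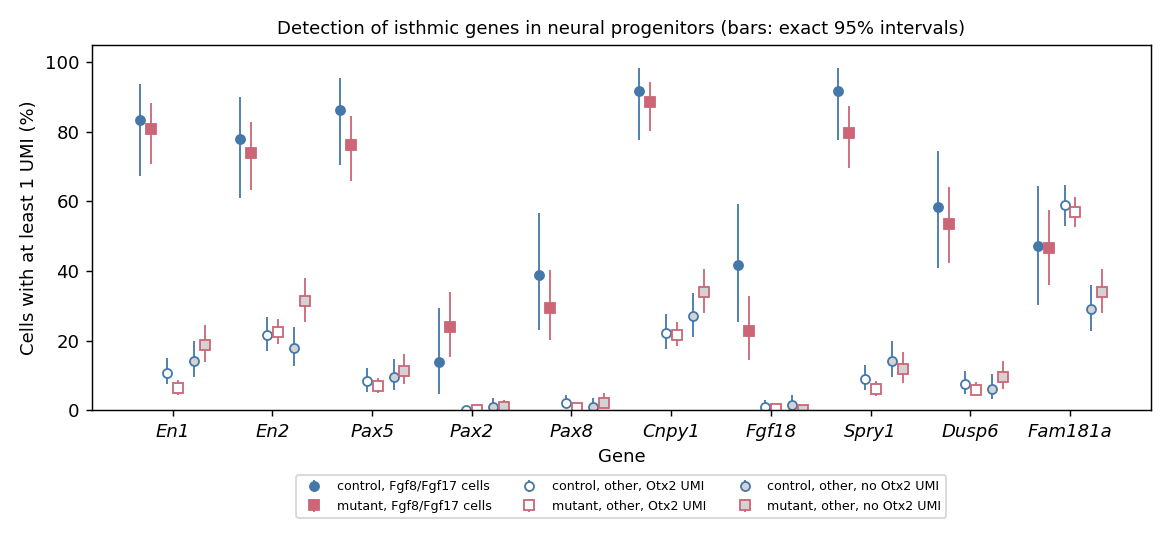
Percentage of cells with at least 1 UMI of each gene (y axis) in Fgf8/Fgf17 cells (filled) and in other neural progenitors with an Otx2 UMI (open) or without one (grey), for the control (circles) and mutant (squares) libraries, with exact 95% intervals. En1, Pax5, Cnpy1 and Spry1 stood highest in the Fgf8/Fgf17 cells, while Fam181a, at 47.2% and 46.6%, lay among the values of the other progenitors.

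At least 1 UMI of En1, En2, Pax2, Pax5 or Pax8 was present in 34 of 36 control and 81 of 88 mutant cells. All 7 mutant cells that lacked one held a UMI of the forebrain genes Six3, Nkx2-1, Rax or Lhx2, as did 1 of the 2 such control cells, so that a few cells went against the label. Six3, a homeobox gene of the anterior forebrain, reached 16, 9, 7, 6, 6 and 1 UMIs in 6 mutant cells and 2 UMIs in 1 control cell. The hindbrain genes Hoxa2, Egr2 and Gbx1 were at 0 in all 124 cells, and Hoxb2 was found in 1 mutant cell. Markers of other tissues were also summed. The 12 mesenchymal genes outside the rule, which itself capped Prrx1, Prrx2 and Twist1, summed to 27.6 CPM in control and 34.5 CPM in mutant cells, against 23.1 and 27.4 CPM in the other progenitors, and Alx1 was at 0 in both. The erythroid list summed to 8.50 and 0 CPM, with Hba-a1 at 0 in both. The endothelial list summed to 6.37 and 6.36 CPM, with Cdh5 at 0, and the surface ectoderm list to 12.7 and 22.7 CPM.

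Fgf8/Fgf17 cells made up 6.94% of control neural progenitors (interval 4.91 to 9.47) and 10.2% of mutant ones (8.25 to 12.4), a difference of 3.25 percentage points (0.0571 to 6.25). With every cell thinned to 5000 UMIs the shares were 5.85% and 8.20%, a difference in the same direction of 2.36 points whose interval, -0.62 to 5.14, included 0. The mutant share was the higher one at every cutoff tried, and with at least 6 progenitor UMIs the difference was 4.68 points (1.61 to 7.55). The interval included 0 when at least 2 Fgf8 and Fgf17 UMIs were required (difference 1.28 points), when the doublet was left out (3.17), and when a positional UMI of En1, En2, Pax2, Pax5 or Pax8 was required (2.82). Fgf8/Fgf17 cells were 0.640% of all sorted cells in the control and 1.58% in the mutant, while all neural progenitors made up 9.23% and 15.5%, and a share of a sort also moves with what else was sorted. Stray UMIs of Fgf8 or Fgf17 were found in 0.475% of 3371 control and 0.459% of 2397 mutant mesenchymal cells (median depths 14834 and 14685 UMIs) and in 2.38% of 168 and 3.61% of 166 Sox10 cells (median depths 18516 and 16106), where free RNA and expression in crest cells cannot be told apart.

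The 2 ligand genes were read from a wide range of levels per cell. Fgf8 (mm10, chromosome 19, 45736798 to 45742915, minus strand) was detected in 22 control cells, with 152 UMIs and at most 48 in 1 cell, and in 46 mutant cells, with 280 UMIs and at most 27. Fgf17 (chromosome 14, 70636203 to 70642268, minus strand) was detected in 29 control cells, with 169 UMIs and at most 26, and in 76 mutant cells, with 391 UMIs and at most 20. Both were detected in 15 of 36 and 34 of 88 cells, Fgf8 without Fgf17 in 7 and 12, and Fgf17 without Fgf8 in 14 and 42. Fgf17 was thus the more often detected of the pair in both libraries. The median sum of the pair was 4.5 UMIs in control and 5 in mutant cells, and 12 control and 33 mutant cells held 8 or more. Taken over all neural progenitors, Fgf8 stood at 24.4 CPM in the control and 27.7 CPM in the mutant, and Fgf17 at 27.1 and 38.7 CPM.

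**Figure D2:**
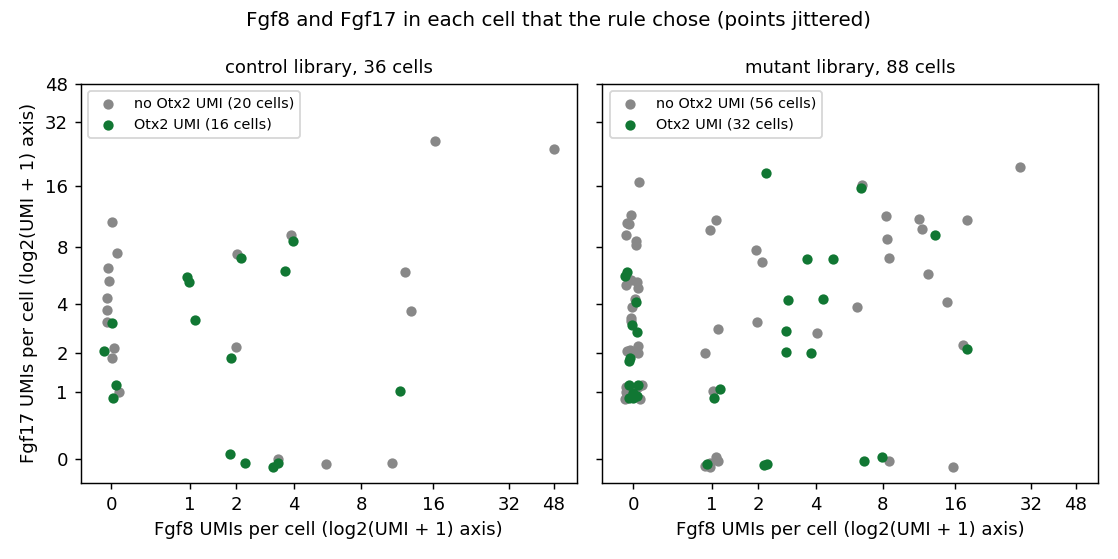
Fgf8 UMIs (x axis) against Fgf17 UMIs (y axis) in each Fgf8/Fgf17 cell of the control (left, 36 cells) and mutant (right, 88 cells) library, on log2(UMI + 1) axes with points jittered; green points held an Otx2 UMI. In both libraries many cells held Fgf17 without Fgf8, and of the cells with 8 or more UMIs of the pair, 4 of 12 control and 8 of 33 mutant cells held an Otx2 UMI.

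The cutoffs ran through graded populations. Of the progenitors with 0 Fgf8 and Fgf17 UMIs, 25.3% of control and 31.6% of mutant cells held a positional UMI (En1, En2, Pax2, Pax5 or Pax8); with exactly 1 Fgf UMI it was 2 of 3 and 21 of 22 cells, with 2 UMIs 4 of 5 and 9 of 11, and with 3 or more 28 of 28 and 51 of 55. Cells with exactly 1 Fgf UMI were 3 of 36 control and 22 of 88 mutant cells. On the side of the progenitor genes, the median sum of Sox2, Sox3 and Hes5 was 7.5 UMIs in control and 10 in mutant Fgf8/Fgf17 cells, against 15 and 14 in other progenitors. Hes5, a Notch target, was not detected in 14 of 36 control and 23 of 88 mutant Fgf8/Fgf17 cells and stood at 323 and 583 CPM. A further 12 control and 19 mutant cells met every other limit but held under 3 progenitor UMIs, and 10 and 15 of them held a positional UMI. Just inside the cutoff, at 3 UMIs, were 7 control and 4 mutant cells, 6 and 4 of them with a positional UMI.

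Compared with the other progenitors of their own library, the Fgf8/Fgf17 cells carried high levels of FGF feedback genes and of isthmic transcription factors, and low levels of the COUP transcription factors and of the FGF receptors Fgfr2 and Fgfr3. Of 9019 genes with enough UMIs in each library, 91 (1.01%) were 2-fold or more higher in both libraries and 100 (1.11%) were 2-fold or more lower. Among 16 genes of the FGF feedback and target list that were compared, 11 were 2-fold or more higher in both, and the list's median log2 ratio was 1.91 in the control and 1.87 in the mutant, where the median over all compared genes was -0.02 and 0.01. The sprouty genes Spry1 and Spry2, feedback inhibitors of receptor tyrosine kinases, were higher by log2 ratios of 3.82 and 3.63 in the control and 4.32 and 3.52 in the mutant. Dusp6, the ERK phosphatase, was at 130 CPM in control Fgf8/Fgf17 cells against 7.65 CPM in other control progenitors, and at 93.5 against 9.21 CPM in the mutant. Il17rd, a membrane antagonist of FGF receptors, had log2 ratios of 3.65 and 3.78. Etv4 and Etv5, ETS factors induced by FGF, had ratios of 3.39 and 2.78 in the control and 2.59 and 2.56 in the mutant. Spred2, Flrt2, Sulf1 and Sulf2 did not reach 2-fold in either library, and Etv1 did so only in the control (1.41 against 0.83).

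Of 12 isthmic identity genes compared, 6 were 2-fold or more higher in both libraries: Cnpy1, Pax5, En1, En2, Sp8 and Sp5. En1 (chromosome 1, 120602418 to 120607992, plus strand) had log2 ratios of 3.76 and 3.68, and Pax5 of 3.64 and 4.00. Ranked by the smaller ratio of the 2 libraries, the highest gene was the long intergenic RNA 2610027F03Rik (4.80 and 4.21), ahead of Spry1, and its gene lies beyond the end of En1 on the same strand (120621740 to 120690403). Hes3, a bHLH repressor of the isthmic organiser, had ratios of 3.99 and 3.26 while the other Notch-related repressor Hes1 had 1.12 and 1.36. The remaining genes among the 12 highest were Trh, the precursor of thyrotropin-releasing hormone (4.49 and 3.15), Map7, a microtubule-associated protein (3.83 and 3.21), Minar2 (3.26 and 3.39) and 2700046A07Rik (3.69 and 3.01). Among FGF ligands outside the rule, Fgf15 was at 198 CPM against 78.9 CPM in the control and at 252 against 98.2 CPM in the mutant.

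The receptors did not follow the ligands. Fgfr1 was slightly above the other progenitors, with log2 ratios of 0.64 and 0.31, whereas Fgfr2 was below them with -2.57 and -1.90. Fgfr3 had 1 UMI in control and 2 UMIs in mutant Fgf8/Fgf17 cells, against 290 and 438 UMIs in the other progenitors. Nr2f1 and Nr2f2, which encode the COUP-TF nuclear receptors, were the other 2 of the 3 lowest genes, with 4 and 3 UMIs in control and 16 and 7 UMIs in mutant cells, where the other progenitors held 2203 and 1043, and 2915 and 1505 UMIs. The next lowest were the glutamate transporter Slc1a2, Wfdc1, the ephrin receptor Epha4, Pla2g7 and the activin antagonist follistatin (Fst), all at log2 ratios of -2.92 or below in both libraries; Wfdc1 had 0 control UMIs and is counted there at a floor of 3 UMIs. Of the 9 midbrain genes compared, 4 were 2-fold or more lower in both libraries. They were the alar gene Pax3 (-1.51 and -1.26), Meis2 (-1.56 and -1.63), Nr2f1 and Nr2f2. Of the 5 anterior hindbrain genes compared, 3 were also 2-fold or more lower in both libraries. The median log2 ratio of these 5 was -1.14 in the control and -1.41 in the mutant. None of 24 S phase genes and none of 26 G2 and M phase genes differed 2-fold in both libraries. Wnt1 was higher in control Fgf8/Fgf17 cells (1.94) and near the other progenitors in mutant ones (0.23).

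**Figure D3:**
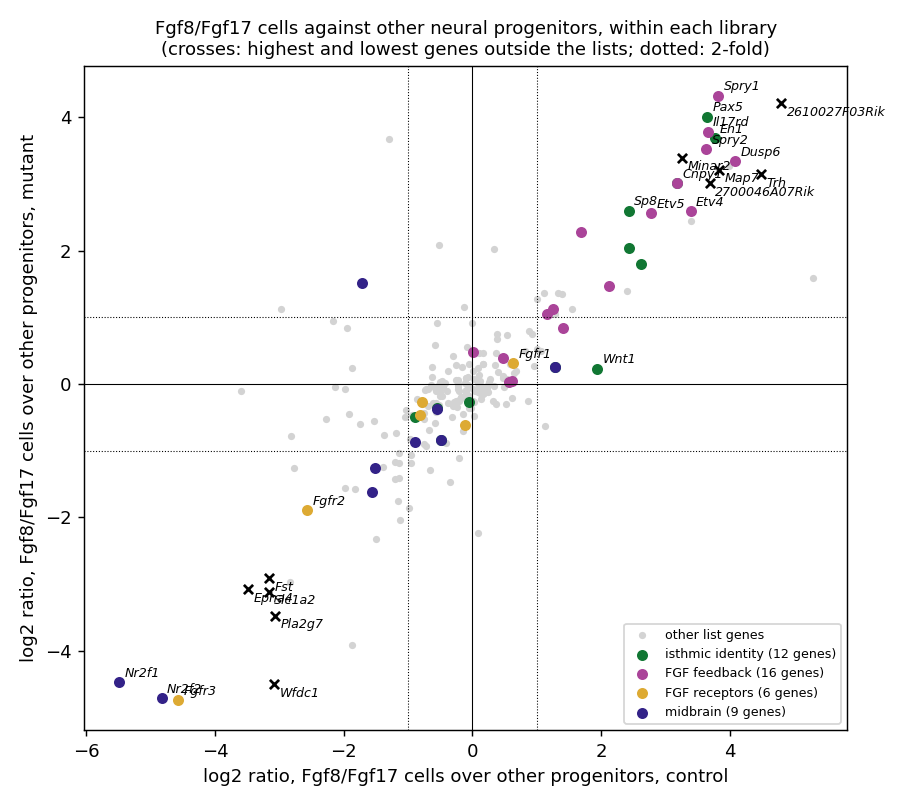
Log2 ratio of CPM in Fgf8/Fgf17 cells over other neural progenitors in the control (x axis) and in the mutant (y axis), each point a gene, coloured by gene list; dotted lines mark 2-fold. FGF feedback and isthmic genes lay at the upper right in both libraries, with Nr2f1, Nr2f2 and Fgfr3 at the lower left.

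The cells were not uniform, and the midbrain marker Otx2 divided them. Otx2 was detected in 16 of 36 control and 32 of 88 mutant Fgf8/Fgf17 cells, and Gbx2 in 3 and 7, and no cell of either library held UMIs of both. The 1 control cell and the 6 mutant cells with a UMI of the forebrain gene Six3 were all among the Otx2 cells. The Otx2 cells were thus not all cells of the midbrain side. Wnt1 UMIs lay mostly in Otx2 cells, in 7 of 9 Wnt1-positive cells of the control and 8 of 11 of the mutant. Between cells with and without an Otx2 UMI, 16 of 2848 genes (0.562%) were 2-fold or more higher in both libraries and 14 (0.492%) lower. Otx1, the paralogue of Otx2, was highest by the smaller ratio, at 127 against 4.41 CPM in the control and 68.4 against 4.73 CPM in the mutant. Mgarp, Meis2, Ehbp1, Scube1, Fam181b and the Wnt antagonist Apcdd1 were also higher in the Otx2 cells of both libraries. Apcdd1 stood at 323 against 44.1 CPM in the control and 139 against 14.2 CPM in the mutant, and Trh at 454 against 44.1 CPM and 87.7 against 15.8 CPM. Id4, an inhibitor of bHLH factors, was the lowest in Otx2 cells, at 16.4 against 225 CPM in the control and 29.9 against 399 CPM in the mutant, followed by the Wnt modulator Sfrp1, Ly6h, the radial glial fatty acid binding protein Fabp7 and Id1. Spry1, En1, Pax5 and Cnpy1 differed by less than 2-fold between Otx2 cells and the rest in both libraries. Fgf8 and Fgf17 themselves were lower in Otx2 cells, by log2 ratios of -1.80 and -1.57 in the control and -0.73 and -0.93 in the mutant.

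Cells with Fgf8 also differed from cells with Fgf17 alone (22 against 14 control and 46 against 42 mutant cells), with 13 of 2849 genes (0.456%) 2-fold or more higher and 6 (0.211%) lower in both libraries. Zfp503, Trh, the cell cycle inhibitor Cdkn1a, Igfbp5, the long non-coding RNA Rmst and Dusp6 were higher with Fgf8. Dusp6 stood at 178 against 54.3 CPM in the control and 131 against 56.4 CPM in the mutant. The homeobox gene Dbx1 was lowest, at 10.5 against 168 CPM in the control and 14.5 against 107 CPM in the mutant, and Pax3, Irx5 and Irx3, which pattern the neural tube, were also lower. Pax5 had log2 ratios of -0.07 and -0.0037. Sorted by amount instead, cells with 3 or more Fgf UMIs against cells with 1 UMI gave 5 higher (0.197%) and 1 lower (0.0393%) of 2544 genes, but this rested on 3 control cells at 1 UMI. Against the 8 control and 33 mutant cells with 1 or 2 UMIs, 3 of 2849 genes (0.105%) were higher, namely Pcp4l1, Trh and Cdkn1a, and 4 (0.14%) were lower, Hes6, Nuak2 and Otx1 among them. Hes6, a bHLH factor of early neurogenesis, stood at 101 against 243 CPM in the control and 142 against 340 CPM in the mutant.

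Between genotypes, the FGF feedback genes with enough UMIs differed by less than 1.5-fold in the Fgf8/Fgf17 cells, while Wnt1, Apcdd1, Nkd1, Trh and Rmst were lower in the mutant library and Id4, Irx1 and Meg3 were higher. Of 2839 genes with at least 100 UMIs over the Fgf8/Fgf17 cells of both libraries, 81 (2.85%) were 1.5-fold or more higher in the mutant. Another 52 (1.83%) were 1.5-fold or more lower. The counting interval left out 0 for 69 of the higher and 52 of the lower genes. The same counts chose the genes and gave the intervals, so this is not separate support. The share of all 2839 genes whose interval left out 0 is not given here. In all, 133 genes (4.68%) were past 1.5-fold in either direction. The median log2 ratio over all these genes was 0.0045. These counts describe 1 library of each genotype. In the other progenitors, 43 of the 81 higher genes also lay above 0 and 7 were past 1.5-fold upward. Of the 52 lower genes, 34 also lay below 0 there and 4 were past 1.5-fold downward. The share of all 2839 genes past 1.5-fold in the other progenitors is not given here, so these counts have no background to be set against.

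Wnt1 (chromosome 15, 98789857 to 98793837, plus strand), the ligand of the midbrain side of the boundary, had 72 UMIs in control and 45 in mutant cells, 153 and 40.9 CPM. Per cell, the 9 positive control cells held 33, 11, 11, 9, 3, 2, 1, 1 and 1 UMIs and the 11 positive mutant cells 10, 8, 8, 4, 3, 3, 3, 2, 2, 1 and 1. The ranges overlapped, and 1 control cell held 45.8% of the control UMIs. The log2 ratio of mutant over control was -1.90 (-2.47 to -1.35), and -1.39 without the richest cell of each library. The call depended on the progenitor cutoff: 65 of the 72 control UMIs were in cells with 3 to 5 UMIs of Sox2, Sox3 and Hes5, and with at least 6 required the ratio was 0.28, whereas with at least 1 it was -1.64. In other progenitors with a positional UMI (122 control and 245 mutant cells, a group chosen after the data were seen) Wnt1 had 18 and 57 UMIs, a ratio of 0.66 (-0.13 to 1.51). Both genotypes carried Wnt1:CRE, and the counts do not separate transcripts of the endogenous gene from any made by the transgene.

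Of 3 Wnt ligands and modulators with enough UMIs, Wnt1 was lower, and the secreted modulators Sfrp1 (0.50; -0.02 to 1.04) and Sfrp2 (0.05; -0.44 to 0.56) lay above 0 with intervals that included it, for a list median of 0.05. Among Wnt targets, Apcdd1 and Nkd1 were lower. Apcdd1, a Wnt antagonist that Wnt signalling induces, had 89 and 74 UMIs, in 17 of 36 and 27 of 88 cells, with a log2 ratio of -1.49 (-1.96 to -1.03). Unlike Wnt1, it stayed lower with at least 6 progenitor UMIs required (-1.42) and in the other progenitors with a positional UMI (-1.44; -1.89 to -0.99). Nkd1, a Dishevelled antagonist, had 71 and 93 UMIs and a ratio of -0.84 (-1.30 to -0.37), which was 0.13 with at least 6 progenitor UMIs. Sp5, a zinc finger target of Wnt signalling, had 38 and 23 UMIs, fewer than the 100 needed to be counted, and a ratio of -1.95 (-2.76 to -1.17). Of the 4 Wnt target genes with enough UMIs, 2 were past 1.5-fold lower and none higher, with a median log2 ratio of -0.51, and the 7 with 20 to 99 UMIs had a median of -0.12. Axin2 and Lef1, other targets, stood at 42.5 and 39.0 CPM and at 46.7 and 38.1 CPM in control and mutant, with intervals that included 0. Rspo3, an enhancer of Wnt signalling, had 11 and 72 UMIs, but in 2 and 7 cells, and its ratio of 1.48 was -0.56 among cells with a positional UMI.

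Trh had the lowest ratio among the 2839 genes, -2.47 (-2.97 to -1.99). It had 121 UMIs in 13 of 36 control cells and 51 UMIs in 13 of 88 mutant cells, and the positive control cells held 41, 34, 12, 9, 8, 4, 3, 3, 2, 2, 1, 1 and 1 UMIs against 17, 12, 7, 4, 2, 2 and 7 cells with 1 in the mutant. The share of positive cells and the upper values were both lower in the mutant, and 1 cell held 33.9% of the control and 33.3% of the mutant UMIs. With at least 6 progenitor UMIs required the ratio was -0.78. Rmst, a long non-coding RNA of the ventral midbrain and other neural progenitors, had 347 UMIs in 32 of 36 control cells and 388 UMIs in 64 of 88 mutant cells, 737 and 352 CPM, and a ratio of -1.07 (-1.28 to -0.85). In the other progenitors with a positional UMI, the ratio was -2.09 for Trh and -0.99 for Rmst. Among the other lowest genes were 2700046A07Rik, Fam181b, Mapk6, Mzt1, Sorbs2 and Memo1, at ratios from -1.06 to -0.83. Fam181b, the paralogue of Fam181a, had 122 and 145 UMIs, a ratio of -0.98 that was 0.035 among cells without an Otx2 UMI.

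**Figure D4:**
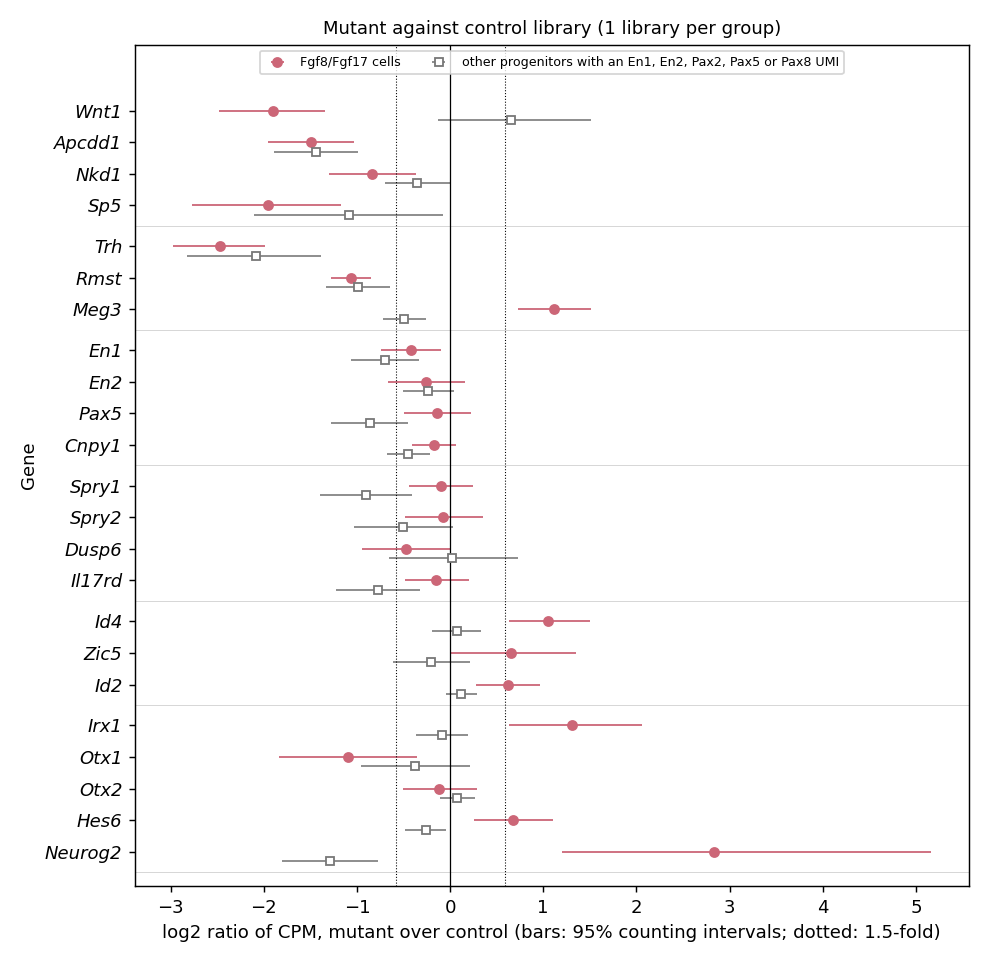
Log2 ratio of CPM, mutant over control (x axis), with 95% counting intervals for named genes (y axis) in Fgf8/Fgf17 cells (circles) and in other progenitors with a UMI of En1, En2, Pax2, Pax5 or Pax8 (open squares); dotted lines mark 1.5-fold. Wnt1, Apcdd1, Sp5, Trh and Rmst lay to the left in the Fgf8/Fgf17 cells, and Wnt1 lay to the right of 0 (0.66) in the other group.

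None of 7 FGF feedback genes with enough UMIs was past 1.5-fold, and all 7 lay below 0, from Dusp6 at -0.47 (-0.94 to 0.01) to Spry2 at -0.07 (-0.48 to 0.35), with a median of -0.15. The 9 genes of that list with 20 to 99 UMIs had a median of -0.32. Spry1 stood at 221 CPM in control and 206 CPM in mutant cells (-0.10; -0.44 to 0.25) and Il17rd at 225 and 203 CPM (-0.15; -0.49 to 0.20). Of 9 isthmic identity genes with at least 100 UMIs, Wnt1 alone was past 1.5-fold, 7 lay below 0, and the median was -0.14. The 6 with 20 to 99 UMIs, Otx1, Sp5, Pax8 and Fgf18 among them, had a median of -0.73, which is past 1.5-fold. En1 was at 278 and 208 CPM, a ratio of -0.42 (-0.74 to -0.10), Pax5 at 206 and 187 CPM (-0.14; -0.49 to 0.22) and Cnpy1 at 478 and 424 CPM (-0.17; -0.41 to 0.06). Otx2 was at 170 and 157 CPM (-0.11; -0.50 to 0.29), whereas Otx1 had 32 and 35 UMIs and a ratio of -1.10 (-1.83 to -0.36) that was 0.10 among cells without an Otx2 UMI. Fgf18 had 26 and 37 UMIs (-0.72; -1.48 to 0.07) and Fgf15 had 93 and 278 UMIs (0.35; 0.01 to 0.71). Fgfbp3, a carrier of secreted FGFs, had 22 and 85 UMIs (0.72; 0.03 to 1.47).

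The genes that were higher in the mutant library included Id2 and Id4, which encode inhibitors of bHLH factors. All 6 genes of the BMP and roof plate list with enough UMIs lay above 0 and 3 were past 1.5-fold, with a median of 0.50. Id4 had 55 UMIs in 19 of 36 control cells and 267 UMIs in 45 of 88 mutant cells, a ratio of 1.05 (0.630 to 1.499), and it was higher at every setting tried for it, from 0.83 to 1.12. Id2 had 92 and 331 UMIs (0.62; 0.28 to 0.97) and the zinc finger gene Zic5 had 25 and 92 (0.65; 0.0027 to 1.35). Neither of the 2 alar plate genes with enough UMIs was past 1.5-fold, with Pax3 at 0.32 (-0.25 to 0.91) and Dbx1 at -0.25 (-0.86 to 0.39), for a median of 0.03. Irx1, an Iroquois homeobox gene, had 21 UMIs in 10 control cells and 122 UMIs in 48 mutant cells, a ratio of 1.31 (0.64 to 2.06). Meg3, an imprinted long non-coding RNA, had 68 and 344 UMIs (1.11; 0.73 to 1.51), with the ratio at 0.60 among cells with a positional UMI. In the other progenitors with a positional UMI, the ratios were 0.07 for Id4, -0.09 for Irx1 and -0.49 for Meg3. The other highest autosomal genes were Alad (1.30), Klc1 (1.19), Ezr (1.16), the linker histone Hist1h1b (1.10), Irak1bp1 (1.06) and Chchd4 (1.00), and 26.3% of the mutant Ezr UMIs came from 1 cell.

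The 2 highest genes of all were X-linked. Gm15261 had 0 control and 361 mutant UMIs and Arhgap6, on whose opposite strand it lies, had 0 and 155. With the control count set to a floor of 3 UMIs, the 2 genes were 51.4-fold and 22.1-fold higher in the mutant. Both were near 0 in the other control progenitors as well, with 4 and 2 UMIs against 2936 and 1073 in the mutant. Hccs, which overlaps Arhgap6, had 21 and 100 UMIs (1.03). The strand setting of the counting is not given in the sources used here, so reads of overlapping genes on opposite strands may not have been told apart. Of 91 X-linked genes tested, 4 were higher and 3 lower.

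**Figure D5:**
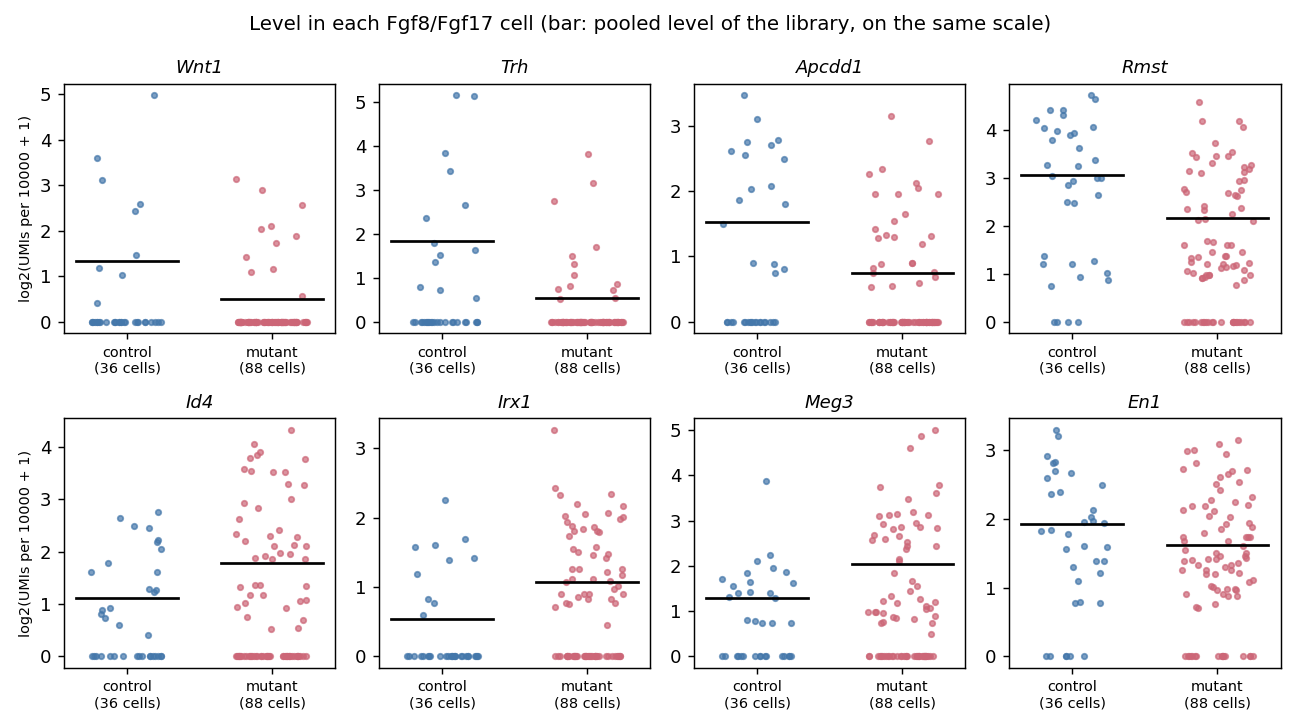
Level of the genes named above each panel in each Fgf8/Fgf17 cell of the control (36 cells) and mutant (88 cells) library, as log2(UMIs per 10000 + 1) on the y axis; the bar is the pooled level of the library. The ranges overlap for every gene, and Wnt1 and Trh rested on a few high control cells while Rmst, Id4 and En1 were read in many cells.

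Several genes of early neurogenesis had higher CPM in the mutant cells. Neurog2, a proneural bHLH gene, had 3 UMIs in 2 of 36 control cells and 50 UMIs in 20 of 88 mutant cells, a ratio of 2.83 (1.20 to 5.16). Neurog1 had 4 and 28 UMIs (1.58; 0.07 to 3.55), and Gadd45g had 8 and 56 (1.58; 0.50 to 2.86) but -0.42 when at least 2 Fgf UMIs were required. Hes6 had 62 and 231 UMIs (0.67; 0.26 to 1.10), a ratio that was 0.20 with at least 2 Fgf UMIs, and Btg2 had 64 and 211 (0.49; 0.09 to 0.92). In the other progenitors Neurog2 and Hes6 went the other way, at -1.27 and -0.20. Mfng, a Notch glycosyltransferase, had 5 and 41 UMIs (1.81; 0.47 to 3.51), and Hes3 had 70 and 114 (-0.52; -0.96 to -0.07).

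A small ventral group was richer in the control library. Nkx2-9, a homeobox gene next to the floor plate, had 67 UMIs in 7 control cells and 22 UMIs in 5 mutant cells (-2.83; -3.60 to -2.12). Shh had 22 UMIs in 4 control cells and 7 UMIs in 2 mutant cells (-2.88; -4.35 to -1.60), and Foxa2 17 and 10 UMIs in 4 and 5 cells (-1.99; -3.28 to -0.78). In these cases the ratio rests on a handful of cells of each library. Among hedgehog pathway genes, the receptor Ptch1, itself a target, had 64 and 96 UMIs (-0.64; -1.11 to -0.16) but 0.24 after thinning, and the transcription factor Gli3 had 27 and 103 (0.71; 0.08 to 1.37).

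Of 19 S phase genes, 18 lay above 0 and 1 was past 1.5-fold (Mcm5, a subunit of the replicative helicase, 0.59; 0.11 to 1.11), with a median of 0.21. The 5 S phase genes with 20 to 99 UMIs went the other way, with a median of -0.42. Of 23 G2 and M phase genes, 1 was higher and 4 were lower, with a median of -0.14. The higher one was the spindle protein Nusap1 (0.88; 0.41 to 1.37) and the lower ones were Hmmr (-0.71, but 0.00827 after thinning), Cdc20 (-0.70), Plk1 (-0.62) and Cdk1 (-0.60), which act in mitosis. Of 11 progenitor genes outside the rule, none was past 1.5-fold, Nes being lowest at -0.49 (-0.77 to -0.21), and Fabp7 stood at 1168 and 1169 CPM. Of 9 hypoxia and glycolysis genes, only the glucose transporter Slc2a1 was past 1.5-fold (0.59; 0.22 to 0.97). Of 4 stress genes none was, with a median of -0.23. Among retinoid genes Crabp2 was at 255 and 248 CPM, and Cyp26b1, which breaks down retinoic acid, had 0 UMIs in control cells and 28 UMIs in 7 mutant cells.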

How the data were processed

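GFP-positive head cells of 1 control and 1 mutant library (2 embryos each) were profiled by 10x Genomics 3′ sequencing. The authors demultiplexed with bcl2fastq and deposited raw UMI counts per gene and barcode from Cell Ranger (version 6.0.0 per the file headers), aligned to mm10. They filtered in Seurat 4.3.0, and the same limits were applied here to the deposited counts: 200 to 7500 genes and at most 10% mitochondrial UMIs. The strand setting and ambient RNA correction are not given in the sources used here. Gene positions were taken from GENCODE, which held 32158 of 32285 features. Counting the 3′ end, without correction for free RNA, can place stray UMIs in cells.

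Members were found by the rule in the report, and counts were summed over the cells of each library. With 1 library per group there was no test and no p-value. A log2 ratio compares CPM (counts per 1000000 UMIs of the summed cells) and carries an exact conditional binomial interval, and shares carry Clopper-Pearson intervals, at a 95% level. A count of 0 was set to 3 UMIs where a fold was needed. Genes with at least 100 UMIs over both libraries were compared at 1.5-fold between genotypes. Genes with at least 50 UMIs among the progenitors of each library were compared at 2-fold with other progenitors, and those with at least 30 UMIs in each library at 2-fold among the members. Gate genes, Xist, Tsix and Y-linked genes were left out. The ratio and its interval were tested on simulated data. Named genes were those of 29 lists with at least 20 UMIs, or a defining marker at 0, the 12 highest and 12 lowest ratios between genotypes, the 12 highest and 8 lowest against other progenitors, and the 10 highest and 6 lowest between kinds of member cell. A few genes that this rule takes in are not reported here. Members and lists were chosen with earlier results of these data known. Doublets were called with Scrublet in scanpy 1.11.5, and scaling by TMM used edgeR 4.0.16. Alternatives were thinning to 5000 UMIs, other cutoffs, TMM, equal weight per cell, and leaving out doublets, shared barcodes or the richest cell.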

Additional observations from a re-analysis of the deposited data

Results flagged for a closer look

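For 11 genes the mutant over control log2 ratio lay on opposite sides of 0 in the Fgf8/Fgf17 cells and in the other neural progenitors. The counting intervals of both ratios left out 0. All 11 came from the gene lists or from the 12 highest and 12 lowest ratios between genotypes. Meg3, Hist1h1b and Sorbs2 came in by the size of that ratio. The number of genes examined is not given here, so the count of 11 has no background to be set against. The difference between the 2 ratios was described with a counting interval and not tested over replicates, since each genotype was 1 library. The Fgf8/Fgf17 cells stood above the other progenitors by 1.777 for Meg3 (1.11 against -0.66), 1.703 for Hist1h1b (1.10 against -0.61), 1.285 for Id4 (1.05 against -0.23), 1.159 for Zic5 (0.65 against -0.51), 0.8723 for Hes6 (0.67 against -0.20), 0.6343 for Btg2 (0.49 against -0.14) and 0.5279 for Top2a (0.31 against -0.22). The Fgf8/Fgf17 cells stood below them by -1.125 for Sorbs2 (-0.87 against 0.26), -0.8262 for Cdc20 (-0.70 against 0.13), -0.4945 for Tpx2 (-0.35 against 0.15) and -0.2985 for Gapdh (-0.12 against 0.17). Sorbs2 overlaps genes on the opposite strand, and 26.9% of the control Hist1h1b UMIs came from 1 cell. The Meg3 ratio in the Fgf8/Fgf17 cells was smaller among those with a positional UMI, as given above.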

How the results depend on the processing

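No paired analysis was possible because each genotype was 1 library and the labels give no replicate numbers. Of the named gene ratios under the alternatives, 2582 stayed within the counting interval of the value reported, 131 moved outside it with no reversal of a ratio past 1.5-fold, and 25 reversed. Thinned to 5000 UMIs, the mutant share was 8.20%, 33 genes were higher and 12 lower between genotypes (73.3% higher, against 60.9% without thinning) with 1054 in place of 2839 compared, and 45 genes were 2-fold or more higher in the Fgf8/Fgf17 cells of both libraries. With at least 2 Fgf UMIs the mutant share was 7.64%, and with at least 6 progenitor UMIs the control share was 4.63% and the difference between genotypes 4.68 points. With no filter on low counts 1707 genes were higher and 2141 lower, and with at least 300 UMIs 8 were higher and 5 lower, as these settings change how many genes are compared. Against members with 1 or 2 Fgf UMIs, 3 genes were higher and 4 lower. The reversed ratios were as follows, and the cause was not tested. With at least 6 progenitor UMIs (chosen after seeing the data, as were the settings at 1 progenitor UMI, without shared barcodes, without the richest cell and with 1 or 2 Fgf UMIs together) they were Wnt1 0.28, Nkd1 0.13, Notum 0.85, Cdkn1a 1.20 and Sesn2 0.13. With at least 2 Fgf UMIs they were Insm1 -0.0078 and Gadd45g -0.42. Among cells with a positional UMI they were Rspo3 -0.56, Pax6 2.31 and Nkx2-1 -1.56. Among Otx2 cells they were Neurog1 -0.52, Elavl4 -0.42 and Slc2a1 -0.30, and among cells without Otx2 they were Ezr -0.11, Fam181b 0.035, Otx1 0.10, Pax6 1.98 and Crabp1 0.74. Thinned, they were Spred3 0.69, Pax6 0.27, Ptch1 0.24, Hmmr 0.00827 and Egln3 -0.47, and without the richest cell of each library Pax6 1.56 and Crabp1 0.18. TMM scaling moved all ratios by 0.0104. Depth limits what can be seen: the 36 control cells hold 470775 UMIs, so the floor of 3 UMIs used for a gene at 0 stands at 6.37 CPM there.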

Other observations

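Other groups of genes set the Fgf8/Fgf17 cells apart from the other progenitors within each library. Cdkn1a, the cell cycle inhibitor p21, was at 68.0 against 6.43 CPM in the control and 40.0 against 7.33 CPM in the mutant, and with Sesn2 (log2 ratios 1.54 and 1.12) it made 2 of 11 p53 and death genes that were 2-fold or more higher in both libraries. Mdm2, another p53 target, had ratios of 0.03 and -0.28, and Bax 0.17 and -0.15. Slc2a1 was the 1 gene of 15 in the hypoxia and glycolysis list past 2-fold (1.01 and 1.27), and the microtubule protein gene Map2 the 1 of 5 neuronal genes (1.40 and 1.34). The basal plate gene Nkx6-2 was higher (1.28 and 1.05). Of 5 alar plate genes 3 were 2-fold or more lower, Pax3 and Pax6 (-1.39 and -1.24) among them. Of 12 proneural genes 2 were lower, Olig3 among them, which had 0 UMIs in control cells against 45.5 CPM in other control progenitors. Of 11 Wnt ligands and modulators 3 were lower, namely Wnt3 (-2.77 and -1.27), Wnt4 (-1.83 and -1.58) and Rspo1 (-1.20 and -1.17), and the glial factor Sox9 was lower too (-1.14 and -1.19).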
